A study of Homo sapiens with 6 samples.

Results

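DDIT3, ATF4 and 8 genes around them (ATF3, ATF5, CEBPB, TRIB3, DDIT4, PPP1R15A, EIF2AK3 and EIF2AK4) are regulators or downstream genes of the integrated stress response. They make up 10 of the 18417 genes measured here and are called regulators below for short. Each gene was matched by its symbol in the platform annotation, and where a symbol had several transcript clusters, the one with the highest mean over all 6 arrays stood for it. The genes were picked with their celecoxib differences already known. Their levels and differences are therefore given as a description and were not tested.

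RNA came from AGS cells, an established human gastric carcinoma line. The labels give 3 arrays of cells exposed to 20 µM celecoxib for 24 h, and 3 arrays of control cells labelled as having received nothing. Celecoxib inhibits cyclooxygenase-2 and was dissolved in DMSO. The labels do not say whether control cells got DMSO, so whether the solvent differed between the groups is not known. The labels call the arrays biological replicates and also mention pooling after the RNA check, without saying which wells an array holds, so the spread between arrays may be technical.

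In the integrated stress response, a group of kinases senses different stresses and phosphorylates the translation initiation factor eIF2. EIF2AK3 (PERK) responds to unfolded proteins in the endoplasmic reticulum (ER), and EIF2AK4 (GCN2) to uncharged transfer RNA during amino acid shortage. Phosphorylated eIF2 lowers general protein synthesis but favours translation of ATF4 messenger RNA, so ATF4 protein can increase with no increase in its transcript. ATF4 then activates genes of amino acid supply and stress genes, among them DDIT3 (CHOP), a transcription factor linked to cell death. DDIT3 is also a target of the ATF6 and XBP1 branches of the unfolded protein response, which raise ER chaperones and degradation factors. The arrays read transcript level only.

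On the deposited log2 scale, array medians lay between 6.75 and 6.82. They were 6.75, 6.78 and 6.79 in celecoxib replicates 1, 2 and 3, all below the 6.81, 6.82 and 6.80 of control replicates 1, 2 and 3. Small differences below are to be read beside this offset. Pearson's r between arrays, across transcript clusters, lay between 0.985 and 0.996. Celecoxib replicate 1 stood furthest out on the first principal component. The level of 195 small nuclear and nucleolar RNAs was also highest in it, with medians of 7.49, 7.21 and 7.17 in celecoxib replicates 1, 2 and 3, against 7.11, 6.98 and 7.13 in control replicates 1, 2 and 3. For each stress regulator the difference is therefore also given without celecoxib replicate 1, or as its range when each array in turn was left out. Differences of single genes in the lists below are given with all 6 arrays only, and some lean on celecoxib replicate 1. Of 14 markers of a gastric epithelial line, 13 lay above the median of all clusters, and their mean per array was 9.70 to 9.81 with celecoxib and 9.81 to 9.89 in controls. Markers of leukocytes (5 genes), endothelium (5) and fibroblasts (6) included 1, 0 and 1 genes above that median, and 0 genes of any of these lists passed the limma test. In bulk RNA, fewer cells with a transcript and less of it per cell cannot be told apart.

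Promoter motifs known from this response are shown first. RefSeq windows of 250 bases before to 50 bases after a transcript start (GRCh38.p14) were searched on both strands. The ATF4 composite element, where ATF4 binds with a C/EBP partner, was written TGATGNAA. It occurred in 3.62% of 35116 windows. The ER stress element, which ATF6 binds with the factor NF-Y, was written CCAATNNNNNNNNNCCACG and occurred in 0.0769% of windows. A form shortened by its last base, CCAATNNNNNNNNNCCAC, was chosen after the DDIT3 window had been read and occurred in 0.316%. Each match to the full form is also a match to the shortened one, and matches to different motifs do not otherwise overlap in the printed windows. The cyclic AMP element TGACGTCA occurred in 1.85% and the AP-1 element TGANTCA in 7.71%. All 10 genes had at least 1 window, 18 in all.

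The windows of 5 genes are printed 5′ to 3′ on the strand of the gene, with motif matches in capitals. They were chosen to show DDIT3, another regulator with a match, an ER stress gene and a pair of classical ATF4 targets. Where a gene had several windows, the one with the most matches was printed. In DDIT3 the capitals mark an AP-1 element and the shortened ER stress element. In PPP1R15A they mark a cyclic AMP element. HERPUD1, an ER degradation factor, has an ATF4 composite element followed by the shortened ER stress element. In ASNS and CHAC1, known ATF4 targets, they mark an ATF4 composite element.
DDIT3 (chr12:57520465-57520764, minus strand): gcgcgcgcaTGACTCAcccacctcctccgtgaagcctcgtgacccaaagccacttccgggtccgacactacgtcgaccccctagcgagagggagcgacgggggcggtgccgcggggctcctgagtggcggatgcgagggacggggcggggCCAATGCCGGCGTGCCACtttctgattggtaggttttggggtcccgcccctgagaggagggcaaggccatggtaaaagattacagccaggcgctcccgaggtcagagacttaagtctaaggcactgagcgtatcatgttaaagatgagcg
PPP1R15A (chr19:48872171-48872470, plus strand): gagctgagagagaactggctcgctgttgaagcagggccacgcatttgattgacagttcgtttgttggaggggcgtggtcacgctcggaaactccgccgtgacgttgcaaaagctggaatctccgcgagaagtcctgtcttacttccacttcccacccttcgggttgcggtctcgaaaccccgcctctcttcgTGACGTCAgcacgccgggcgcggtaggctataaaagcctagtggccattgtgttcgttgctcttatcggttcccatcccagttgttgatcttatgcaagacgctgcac
HERPUD1 (chr16:56931892-56932191, plus strand): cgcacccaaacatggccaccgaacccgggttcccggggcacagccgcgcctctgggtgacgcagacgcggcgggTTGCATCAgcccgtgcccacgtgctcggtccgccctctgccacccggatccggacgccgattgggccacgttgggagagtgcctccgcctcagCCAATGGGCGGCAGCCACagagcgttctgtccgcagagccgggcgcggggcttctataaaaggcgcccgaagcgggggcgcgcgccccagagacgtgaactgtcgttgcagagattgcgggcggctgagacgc
ASNS (chr7:97872359-97872658, minus strand): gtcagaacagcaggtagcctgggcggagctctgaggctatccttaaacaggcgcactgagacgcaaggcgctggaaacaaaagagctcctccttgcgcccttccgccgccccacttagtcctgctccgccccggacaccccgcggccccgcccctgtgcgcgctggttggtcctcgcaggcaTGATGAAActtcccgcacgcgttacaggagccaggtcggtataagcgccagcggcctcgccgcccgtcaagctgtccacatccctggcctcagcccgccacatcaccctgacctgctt
CHAC1 (chr15:40953221-40953520, plus strand): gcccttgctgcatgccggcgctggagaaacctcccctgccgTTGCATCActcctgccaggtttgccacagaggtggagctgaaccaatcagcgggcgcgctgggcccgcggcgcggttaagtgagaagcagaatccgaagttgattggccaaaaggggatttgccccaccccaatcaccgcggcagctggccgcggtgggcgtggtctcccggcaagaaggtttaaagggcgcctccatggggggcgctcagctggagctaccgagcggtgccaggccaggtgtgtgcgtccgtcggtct

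The shortened ER stress element of DDIT3 began 100 bases before the transcript start and its AP-1 element 241 bases before it. The cyclic AMP element of PPP1R15A began 58 bases before its start. Among the 10 genes, only ATF3 had a match to the ATF4 composite element in these windows, 191 bases before 1 of its starts. ATF5 and EIF2AK4 each had an AP-1 element. No motif searched was matched in the windows of ATF4, CEBPB, TRIB3, DDIT4 or EIF2AK3. A match is a run of letters and not a measured binding site, and elements outside these windows were not searched.

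The 10 regulators differed in size and sign of difference. DDIT3 stood 1.58-fold higher with celecoxib, DDIT4 was 0.25 higher on the log2 scale, PPP1R15A was 0.11 higher and EIF2AK3 0.03 higher. The other 6 had negative differences, the lowest of them ATF5 at -0.20. The median over the 10 genes was -0.04 and over the 9 without DDIT3 -0.05, beside -0.01 over all 18417 genes. At a limma adjusted p of 0.05, 0 of the 10 passed, where 0.141% of all genes did, 0.0760% higher and 0.0652% lower. An unadjusted p under 0.05 was found for 3 of the 10, 2 higher and 1 lower, where 11.3% of all genes had one. These counts are read no further, because the genes were chosen on this contrast.

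**Figure D1:**
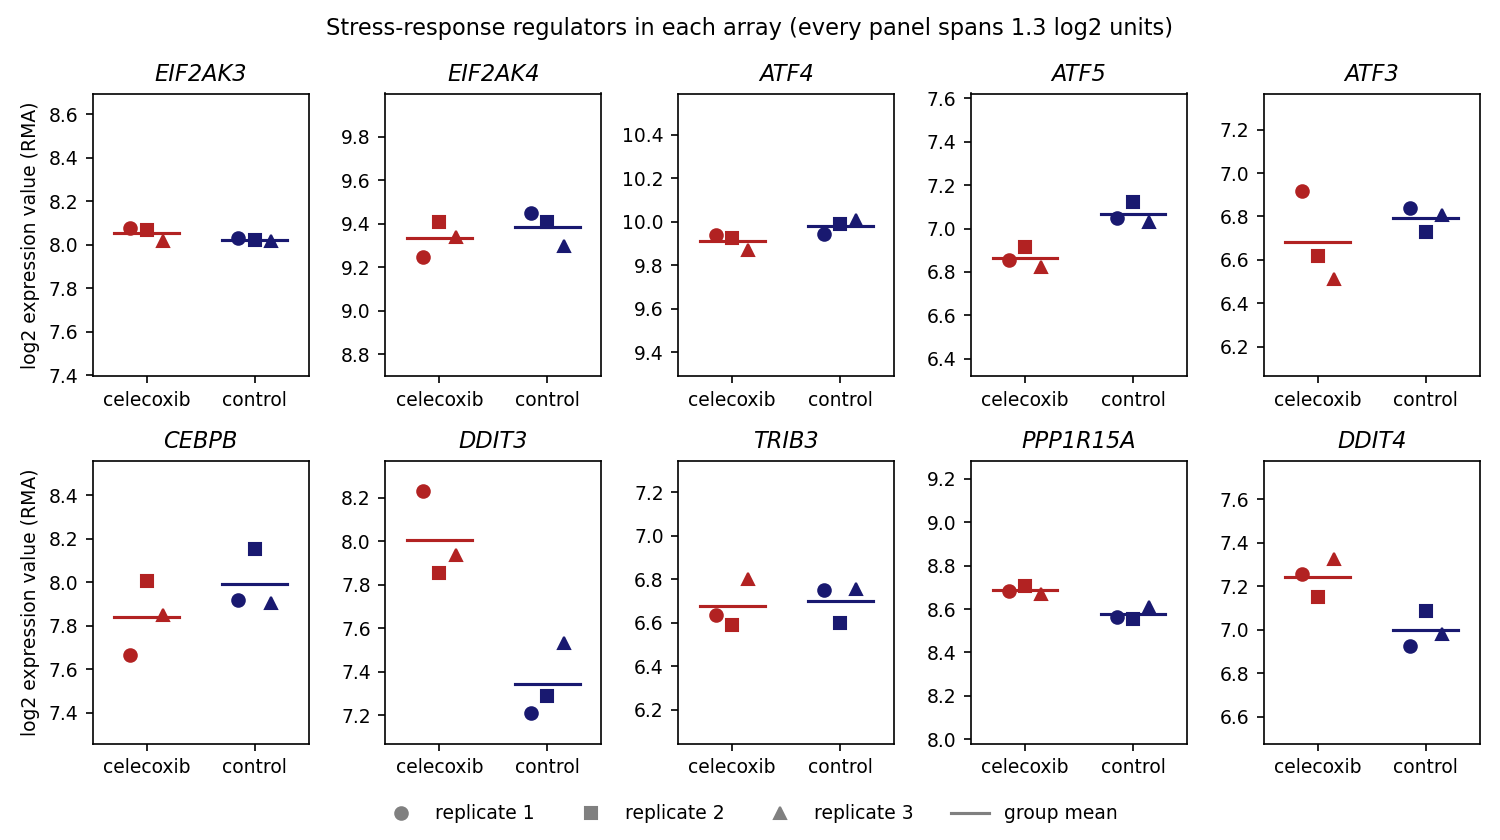
Log2 expression value (vertical axis) of the 10 regulators in each array, celecoxib on the left and control on the right of every panel, with a marker for each replicate and a line at the group mean. All panels span the same range, so the separation of DDIT3 (8.23, 7.85 and 7.94 with celecoxib, 7.21, 7.29 and 7.53 in controls) can be compared with the small shifts of the other genes.

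Both sensor kinases had differences close to 0. EIF2AK3, the ER sensor, had log2 values of 8.08, 8.07 and 8.02 with celecoxib, against 8.03, 8.02 and 8.02 in controls. The groups overlapped, and the difference of 0.03 ± 0.06 (SE, n = 3 per group) had a 95% interval from -0.12 to 0.18. Leaving out each array in turn gave 0.02 to 0.05, the lower value without celecoxib replicate 1. EIF2AK4, the amino acid sensor, had 9.25, 9.41 and 9.34 with celecoxib, against 9.45, 9.41 and 9.30 in controls. It also overlapped, at -0.05 ± 0.08 with an interval from -0.23 to 0.12. The difference was -0.01 without celecoxib replicate 1, -0.02 without control replicate 1, -0.09 without celecoxib replicate 2 and -0.10 without control replicate 3.

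ATF4, the transcription factor at the centre of the response, had values of 9.94, 9.92 and 9.87 with celecoxib, against 9.94, 9.99 and 10.01 in controls. The groups were apart by 0.007 only, and the difference was -0.07 ± 0.07 with an interval from -0.22 to 0.08, and -0.08 without celecoxib replicate 1. A second ATF4 cluster, left aside by the choice of the brighter one, had 9.93, 9.85 and 9.83 with celecoxib, against 9.88, 9.87 and 9.88 in controls. There the groups overlapped and the difference was -0.01 ± 0.07, so the separation seen in the first cluster was not shared by both. ATF4 was the 1 gene of the 10 with a second cluster.

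ATF5, a relative of ATF4 whose translation is also favoured by phosphorylated eIF2, had 6.86, 6.92 and 6.82 with celecoxib, against 7.05, 7.12 and 7.03 in controls. All celecoxib arrays were below all controls, by at least 0.12, and the difference was -0.20 ± 0.07 with an interval from -0.36 to -0.05. Without celecoxib replicate 1 it was also -0.20. ATF5 thus had the opposite sign to DDIT3.

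ATF3, a stress-induced member of the family that often represses its targets, had 6.92, 6.62 and 6.51 with celecoxib, against 6.84, 6.73 and 6.81 in controls. Celecoxib replicate 1 was the highest of the 6 arrays and the other celecoxib arrays the lowest. The difference was -0.11 ± 0.11. It was -0.23 without celecoxib replicate 1 and -0.02 without celecoxib replicate 3, so its size rested on single arrays. CEBPB, a C/EBP factor that can pair with DDIT3 and ATF4, had 7.66, 8.00 and 7.85 with celecoxib, against 7.92, 8.15 and 7.90 in controls. Here celecoxib replicate 1 was the lowest array, the groups overlapped, and the difference was -0.15 ± 0.11. It was -0.07 without that array or without control replicate 2, and -0.23 without celecoxib replicate 2.

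DDIT3 had 8.23, 7.85 and 7.94 with celecoxib, against 7.21, 7.29 and 7.53 in controls. The lowest celecoxib array lay 0.32 above the highest control. The difference was 0.66 ± 0.12 (SE, n = 3 per group) with an interval from 0.38 to 0.94, and 15 of the 18417 genes had a larger positive difference. Its standard error was the highest of the 10 genes. DDIT3 was highest in celecoxib replicate 1, the array that also had the most small nuclear and nucleolar RNA, and the part of that level in the difference was not tested. Without that array the DDIT3 difference was 0.55, and without control replicate 3 it was 0.76.

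The genes that act downstream or as feedback divided. TRIB3, a pseudokinase induced by ATF4 and DDIT3 that restrains both, had 6.64, 6.59 and 6.80 with celecoxib, against 6.75, 6.60 and 6.76 in controls. The 3 controls lay inside the range of the celecoxib arrays, and the difference of -0.03 ± 0.08 had an interval from -0.22 to 0.17. Its sign turned when arrays were centred on their medians (0.01) or when celecoxib replicate 2 was left out (0.02). It was -0.01 without celecoxib replicate 1 and -0.09 without celecoxib replicate 3. The mean level over all 6 arrays was 6.69 for TRIB3 and 6.74 for ATF3, both below the median of all clusters (6.785). Their signal over background is unknown. PPP1R15A (GADD34), which brings a phosphatase to eIF2 and ends the response, had 8.68, 8.71 and 8.67 with celecoxib, against 8.56, 8.55 and 8.61 in controls. The groups were apart by 0.06, with a difference of 0.11 ± 0.06 and an interval from -0.04 to 0.26. Without celecoxib replicate 1 it was also 0.11.

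DDIT4 (REDD1), an inhibitor of the growth kinase complex mTORC1, had 7.26, 7.15 and 7.33 with celecoxib, against 6.93, 7.09 and 6.98 in controls. Every celecoxib array was above every control, and the difference was 0.25 ± 0.08 with an interval from 0.06 to 0.43. Without celecoxib replicate 1 it was 0.24. Groups were apart in 5 of the 10 genes, DDIT3, DDIT4 and PPP1R15A with higher celecoxib values and ATF4 and ATF5 with lower ones, where 19.0% of all genes had groups apart, 11.1% higher and 7.95% lower.

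**Figure D2:**
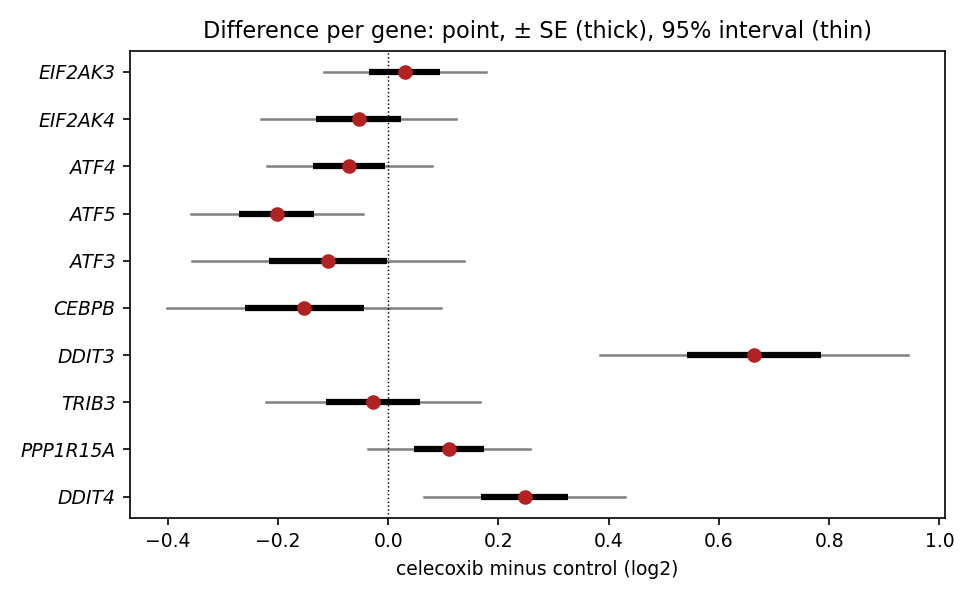
Difference in log2 value, celecoxib minus control, for each of the 10 genes (horizontal axis), from the kinases at the top to the downstream genes at the bottom. The point is the difference, the thick bar the standard error and the thin bar the 95% interval. The point of DDIT3 (0.66) lies above those of the others, which are between -0.20 (ATF5) and 0.25 (DDIT4). The 95% intervals of DDIT3 (0.38 to 0.94) and DDIT4 (0.06 to 0.43) overlap.

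DDIT3 was then set beside other known ATF4 targets. In the 2 lists of ATF4 targets, 52 genes were measured, 23 with positive and 29 with negative differences and a median of -0.02. None of the 52 had a difference above that of DDIT3, where 15 of all 18417 genes did. SLC7A11 (0.60) and SQSTM1 (0.58) came nearest. This count is read no further, since DDIT3 was chosen with its difference known. Relative to each gene's own mean over the 6 arrays, DDIT3 stood at 0.56, 0.18 and 0.26 in celecoxib replicates 1, 2 and 3, against -0.47, -0.38 and -0.14 in control replicates 1, 2 and 3. The median of the 52 targets stayed between -0.02 and 0.02 in every array. The DDIT3 difference exceeded the median difference of the targets by 0.68, and by 0.58 without celecoxib replicate 1. Some of the 52 targets are dim. SLC7A3, STC2 and GPNMB lay below the level that bounds the dimmest 20% of genes (5.63). The excess was 0.69 without the dimmest 20% of genes and 0.68 among genes above the median of all clusters. This split is part of why the genes were chosen and has no test.

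**Figure D3:**
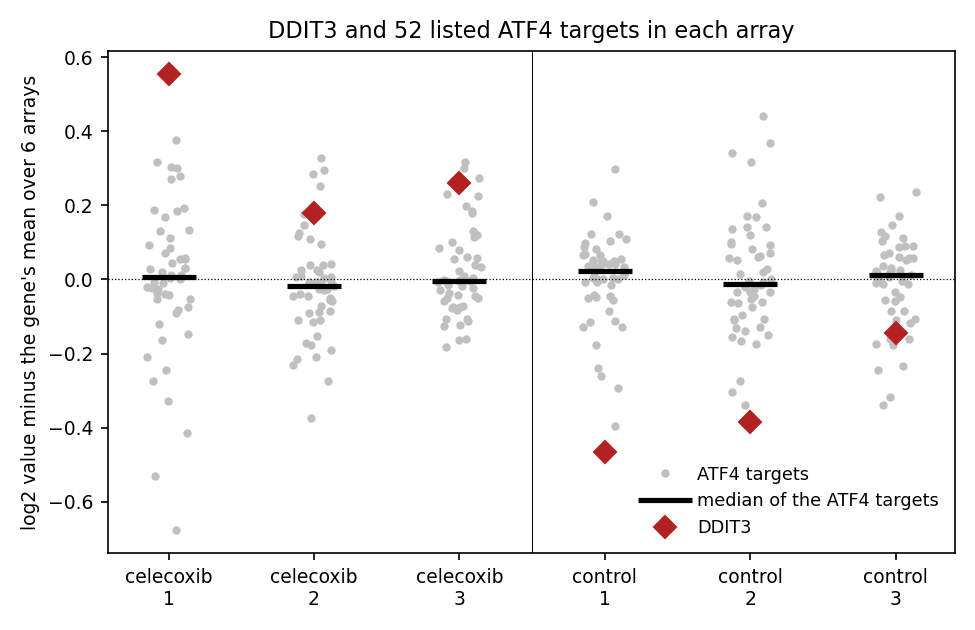
Log2 value minus the gene's own mean over 6 arrays (vertical axis) in each array, celecoxib left and control right, for DDIT3 (diamonds), 52 ATF4 targets (dots) and their median (bars). DDIT3 lies above 0 in the 3 celecoxib arrays and below 0 in the 3 controls, while the median of the targets stays within 0.02 of 0.

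Of the 28 ATF4 targets measured for amino acid supply, 1 passed the limma test across all genes, and it rose. SLC7A11, the cystine transporter, had 9.62 ± 0.02 with celecoxib and 9.02 ± 0.04 in controls (SD, n = 3 each), a rise of 0.60 ± 0.06 (SE, limma adjusted p = 0.0296). SLC3A2, the heavy chain that pairs with it, stood at 0.27 ± 0.07 (limma adjusted p = 0.266). The asparagine synthetase ASNS stood at -0.25 ± 0.09 and the amino acid transporters SLC7A5 and SLC7A1 at -0.41 ± 0.16 and -0.26 ± 0.15. The next highest, NARS1, an aminoacyl-tRNA synthetase, stood at 0.10 ± 0.08. Over the list 11 genes were higher and 17 lower, with a median of -0.03 and unadjusted p under 0.05 for 2 higher and 5 lower genes. Of all genes, 6.87% had such a p in the higher direction and 4.44% in the lower. The same shares stand beside the counts of each list below.

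Of the 24 ATF4 targets linked to stress, 1 passed, and it rose. SQSTM1, an autophagy receptor that is also a target of the antioxidant factor NRF2, had 10.41 ± 0.03 with celecoxib and 9.82 ± 0.05 in controls (SD, n = 3 each), a rise of 0.58 ± 0.07 (SE, limma adjusted p = 0.0296). GDF15, a stress cytokine with several other inducers, stood at 0.44 ± 0.07 (limma adjusted p = 0.0907) and KLHL24 at 0.37 ± 0.08. CHAC1, which degrades glutathione and is a classical target of ATF4, stood at -0.16 ± 0.07. The cysteinyl-tRNA synthetase CARS1 stood at -0.17 ± 0.07 and RHOQ at -0.24 ± 0.25. RHOQ had 8.92, 9.93 and 9.58 in celecoxib replicates 1, 2 and 3, beside a control mean of 9.72, so its sign leaned on celecoxib replicate 1. The list had 12 genes higher and 12 lower, with a median near 0 and unadjusted p under 0.05 for 5 higher genes and 1 lower. The 2 rises, of SLC7A11 and SQSTM1, passed with all 6 arrays only. Without any 1 array, limma called 0 of the 136 listed genes, and 13 to 29 had an unadjusted p under 0.05.

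ATF4 targets with and without an ATF4 composite element in the promoter were then set apart. Of 40 measured targets with a promoter window, 17 had a match, 4 with positive and 13 with negative differences and a median of -0.12. ASNS and CHAC1, printed above, are among them, as are CEBPG, SLC3A2 and the tRNA synthetase genes AARS1, CARS1, GARS1, IARS1, MARS1 and NARS1. The 23 without a match had 14 positive and 9 negative differences and a median of 0.01. Windows were set by position only, and a gene counted as matched when any of its windows held a match. Several of the matched genes belong to 1 enzyme family, and the difference between the 2 sets was not tested.

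Among 26 genes of the ATF6 and XBP1 branches, limma called 0, but 6 had an unadjusted p under 0.05 in the higher direction and 0 in the lower, where 6.87% and 4.44% of all genes did. Of these genes 21 were higher and 5 lower, with a median of 0.14. Among the celecoxib arrays, more of these genes were highest in replicate 1 than lowest in it. ERO1B, DNAJB9, DERL1, DERL2, MANF, SDF2L1 and SELENOS were among the highest, and HSPA5, HERPUD1, SYVN1 and HYOU1 among the lowest. The part of celecoxib replicate 1 in the median of 0.14 was not tested. ERO1B, an oxidase of disulfide formation, stood at 0.52 ± 0.10 (limma adjusted p = 0.138), DNAJB9, a co-chaperone of degradation, at 0.31 ± 0.11 and HERPUD1 at 0.27 ± 0.08. At the other end were the degradation factor DERL3 (-0.09 ± 0.07), and the chaperones HYOU1 (-0.06 ± 0.10) and HSP90B1 (-0.03 ± 0.06). Of 24 genes with a window, 8 had the shortened ER stress element that is also present in DDIT3. These were HERPUD1, HSPA5, XBP1, CALR, CRELD2, ERO1B, HSP90B1 and PDIA6, and 6 were higher and 2 lower with a median of 0.01. Of the 16 without it, 14 were higher and 2 lower with a median of 0.15, and the difference between the 2 sets was not tested. The chaperone gene HSPA5, whose promoter holds the full element, stood at 0.17 ± 0.07, and XBP1 at 0.01 ± 0.06.

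Of 13 genes listed as DDIT3 targets or death genes, with 3 of the 10 regulators left out of the list, 0 passed in limma and 1 had an unadjusted p under 0.05. The median was 0.01. DNAJB9, also in the ER list, was the highest. The next highest were WARS1 (0.07 ± 0.07) and TNFRSF10A, a death receptor (0.04 ± 0.07). The oxidase ERO1A stood at -0.15 ± 0.09, and the pro-apoptotic genes BCL2L11 and BBC3 at -0.15 ± 0.18 and -0.11 ± 0.08. BCL2L11 had 7.19, 7.77 and 7.61 in celecoxib replicates 1, 2 and 3, beside a control mean of 7.68. Its negative sign thus leaned on celecoxib replicate 1.

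**Figure D4:**
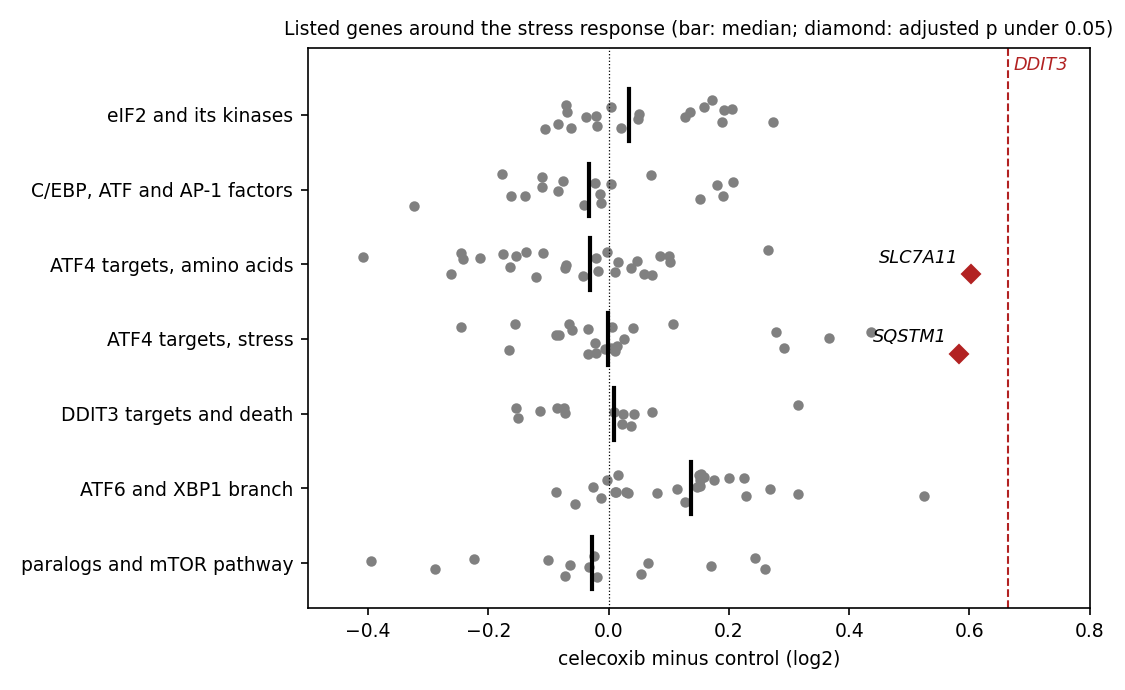
Difference in log2 value, celecoxib minus control (horizontal axis), of each listed gene in 7 lists around the stress response; a black bar marks the list's median, diamonds the genes past a limma adjusted p of 0.05 and the dashed line DDIT3 (0.66). SLC7A11 and SQSTM1 are the 2 diamonds, and the ATF6 and XBP1 branch has the highest median (0.14).

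Of 20 genes of eIF2, its exchange factor, kinases and phosphatases, 0 passed in limma and 1 had an unadjusted p under 0.05, EIF2B1, a subunit of the exchange factor, at 0.20 ± 0.08. The adaptor NCK1 and the initiation factor EIF2A stood at 0.27 ± 0.12 and 0.19 ± 0.09. All of these were highest in celecoxib replicate 1. In celecoxib replicates 1, 2 and 3, EIF2B1 had 9.98, 9.77 and 9.72, NCK1 8.68, 8.29 and 8.36, and EIF2A 10.01, 9.73 and 9.79. PPP1CC, a catalytic phosphatase subunit, EIF2S2, the beta subunit of eIF2, and GCN1, the partner of EIF2AK4, stood at -0.11 ± 0.07, -0.08 ± 0.08 and -0.07 ± 0.10. GCN1 was lowest in celecoxib replicate 1 (9.44, with 9.77 and 9.60 in celecoxib replicates 2 and 3). The other eIF2 kinases were close to 0, with EIF2AK1 at 0.05 ± 0.06 and EIF2AK2 at -0.02 ± 0.08, named after their values were seen. The list had a median of 0.03, with 12 genes higher and 8 lower.

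Among 18 C/EBP, ATF and AP-1 factors, 0 passed in limma, with 1 higher and 1 lower gene at an unadjusted p under 0.05. JUN, the AP-1 subunit, was the lowest at -0.32 ± 0.12, with MAF at -0.18 ± 0.08 and CEBPE at -0.16 ± 0.13. ATF2, CREB3 and FOS were the highest, at 0.21 ± 0.08, 0.19 ± 0.09 and 0.18 ± 0.11. The paralogs of TRIB3 had lower values with celecoxib in every array, and their difference from TRIB3 was not tested. TRIB1 had a mean of 8.18 ± 0.06 with celecoxib and 8.58 ± 0.13 in controls (SD, n = 3 each), a difference of -0.40 ± 0.09 (SE, limma adjusted p = 0.185). TRIB2 stood at -0.29 ± 0.09. In the same list of 14 paralogs and mTOR pathway genes, 0 passed and 2 higher and 2 lower genes had an unadjusted p under 0.05. GADD45B, a growth arrest gene, stood at -0.22 ± 0.10, while the sestrins SESN1 and SESN3 stood at 0.26 ± 0.07 and 0.17 ± 0.09 and TSC1, like DDIT4 an inhibitor of mTORC1 signalling, at 0.24 ± 0.08.

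Genes with the pattern most like that of DDIT3 over the 6 arrays were sought among 8785 brighter genes. PHF3, SMIM14, THUMPD2, the glutamate transporter SLC1A3 and TM2D1 were the 5 with the highest Pearson's r, from 0.993 to 0.998. Of the 8785 genes, 547 had an r above 0.9 with DDIT3 over these 6 arrays in 2 groups. For ATF4 the 5 were TTLL4, TBX19, MSLN, TAGLN2 and CNN3, with r from 0.948 to 0.975 and 36 genes above 0.9. For TRIB3 they were IGKC, UFSP1, KRTAP5-2, KIF26A and MSX2P1, from 0.955 to 0.988, with 14 of 8786 genes above 0.9. The 3 sets shared no gene, which is not read as a result, since each holds the top 5 for a different pattern.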

How the data were processed

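RNA from 6 arrays (HuGene-1_0-st) was compared. The deposited table holds log2 expression values of 33297 transcript clusters, which the authors made with RMA in Affymetrix Expression Console 1.1, per the submitters' processing notes. Probe-level settings and scan batches are not stated in these sources, and scanner files were not used, so signal over background is unknown. The number of arrays limits the precision.

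Clusters with 1 gene symbol (19460) were kept and gave 18417 genes. Entrez identifiers of 19429 were in a GRCh38.p14 gene table, and 0 symbols changed. No filter on signal was applied. All 10 stress regulators were above the dimmest 20% of genes and 8 above the median of all clusters. TRIB3 and ATF3 were below that median. Levels of different genes are not compared, since probes differ.

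Limma 3.58.1 in R 4.3.3 (lmFit, eBayes) compared 3 celecoxib with 3 control arrays, two-sided, with Benjamini-Hochberg adjustment over 18417 genes and a threshold of 0.05. Differences are celecoxib minus control in log2, with standard errors and 95% intervals from this fit. The procedure was tested on simulated data. The genes, the 7 lists (141 genes besides the 10, of which 136 were measured; some are in 2 lists) and the tests were chosen with earlier results of these data known. ATF1, ATF6B, CBS, GPT2 and PDIA3 were not analysed here. Of each list, genes past the threshold and the 3 highest and 3 lowest differences are named, and others only where stated or where a motif is described. Likeness was sought among genes above the median level, without uncharacterised, small RNA and TMEM symbols. Promoter windows are RefSeq's, and 40 of 52 ATF4 targets had one. Plots come from matplotlib 3.10.9 (Python 3.11.15).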

Additional observations from a re-analysis of the deposited data

How the results depend on the processing

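The DDIT3 difference lay between 0.55 and 0.76 over 16 alternatives, and its excess over the ATF4 targets between 0.58 and 0.78, each within the spread of replicates of its main value. With array weights 1 of the 10 regulators passed, DDIT3, and in the other 15 alternatives 0 did. The weights were 5.85 for control replicate 1, 0.37 for celecoxib replicate 1 and 0.55 to 1.21 for the other arrays. That fit thus leaned on control replicate 1, the array where DDIT3 was lowest (7.21). Without control replicate 1 the limma adjusted p of DDIT3 was 0.475. The number with an unadjusted p under 0.05 was 3, 4 with array weights, 3 in the other alternatives that kept every array, and 1 to 4 when an array was left out, the 1 being without celecoxib replicate 3. Centring arrays on their medians moved ATF4 to -0.03, PPP1R15A to 0.15 and EIF2AK3 to 0.07. The number of all genes called, 26 in the comparison as reported, was 76 above the median of all clusters, 59 without the dimmest 20% of genes, 44 with quantile normalization, 69 with an intensity trend in the prior, with or without a robust prior, and 177 with array weights. It was 0 with all transcript clusters tested together (2551 at an unadjusted p under 0.05) and 0 to 5 when an array was left out (1293 to 2353). Listed pathway genes called were 2, and 3 (GDF15 besides SLC7A11 and SQSTM1) among genes above the median of all clusters and with an intensity trend in the prior, with or without a robust prior. They were 5 with array weights (SLC7A11, SQSTM1, GDF15, KLHL24 and TRIB1), 0 with all clusters (21 at an unadjusted p under 0.05) and 0 when any array was left out.

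The labels number replicates 1 to 3 in both groups. Deviations of same-numbered arrays from their group means correlated at -0.02, 0.49 and 0.01 across genes, and celecoxib replicate 1 correlated best with control replicate 3 (0.41), so the numbers were not taken as pairs. With the replicate number as a block, 0 genes were called (2448 at an unadjusted p under 0.05), 0 of the listed genes (31) and 0 of the 10 regulators (3).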
